A study of Mus musculus with 8 samples.

Results

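The genes described here are the expressed genes that span 200 kb or more of the mouse genome. A symbol was taken when the distance from its start to its end was at least 200 kb and its mean level over all 8 libraries was at least 5 TPM, a share of all transcripts after correction for transcript length. Members were thus chosen by their annotated span and by a measured level averaged over KO and WT libraries alike. Since WT libraries count in that mean, a gene can enter through a high WT level alone. The rule was also set with earlier results of these data known. Of 23337 symbols, 1027 spanned 200 kb or more, 201 of those reached the level, and 192 remained after 9 names of other gene groups were left out. Naive T cells, sorted as CD62L-positive cells with low CD44, came from spleens and mesenteric lymph nodes of mice aged 4 weeks. There were 2 libraries in each of 4 groups, namely CD4 cells of Trappc1 conditional knockout (KO) mice, CD4 cells of wild-type (WT) mice, CD8 cells of KO mice and CD8 cells of WT mice. The titles of all 8 libraries mark them as fresh. In the KO mice a CD4-cre transgene, active in developing T cells before the CD4 and CD8 lineages separate, drives the deletion of Trappc1, a subunit of the TRAPP complexes of membrane traffic. The labels list CD4-cre with the KO mice and do not say whether the WT mice carried the transgene, whether cells of several animals were pooled or whether the 2 libraries of a group came from separate animals. P-values therefore set differences against the variation among these libraries, some or all of which may be technical.

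Long genes are long because of their introns. RNA polymerase has to travel the whole span before the first full transcript is released. A long gene therefore takes more time to transcribe than a short gene with an mRNA of similar size. In lymphocytes such genes include Rac activators of migration, protein kinases downstream of the antigen receptor, chromatin regulators and enzymes of intermediary metabolism.

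The span that chose the members consisted mostly of introns. Exons of 191 members were found in the basic set of the GENCODE vM21 annotation. Over these, the median member spanned 275 kb, its exons together made up 2.13% of the span, and its longest intron measured 89.4 kb. Over the 8834 other expressed symbols, which span less than 200 kb, the exons made up a median of 15.9% of the span and the longest intron a median of 5.93 kb. The median merged exon length was 6065 bases in members and 3069 bases in the other symbols. Gmds illustrates this: on the minus strand of chromosome 13 (mm10, chr13:31819586-32338544) it spans 519 kb, and its 11 exons hold 1713 bases, 0.330% of the span. Members lay on 20 chromosomes, 104 on the plus strand and 88 on the minus strand.

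The promoters of 4 members are shown. With all libraries these genes had the most negative log2 differences, averaged over both KO comparisons, among members with a promoter in the RefSeq table. For Ebf1 neither difference passed the test described below, and its CD8 value went from -4.14 to -2.17 without CD8 WT replicate 2. Each sequence is the 250 bases upstream of the annotated start, written 5' to 3' on the gene's strand (RefSeq, GRCm38.p6, the assembly that mm10 is based on), with CpG dinucleotides in capitals.
Gmds, chr13:32338545-32338794, minus strand: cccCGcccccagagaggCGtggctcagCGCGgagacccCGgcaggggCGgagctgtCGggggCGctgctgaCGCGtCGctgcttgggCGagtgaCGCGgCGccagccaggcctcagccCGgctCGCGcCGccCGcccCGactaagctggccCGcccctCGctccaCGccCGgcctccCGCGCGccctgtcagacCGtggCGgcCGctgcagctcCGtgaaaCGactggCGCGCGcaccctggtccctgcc
Ebf1, chr11:44617850-44618099, plus strand: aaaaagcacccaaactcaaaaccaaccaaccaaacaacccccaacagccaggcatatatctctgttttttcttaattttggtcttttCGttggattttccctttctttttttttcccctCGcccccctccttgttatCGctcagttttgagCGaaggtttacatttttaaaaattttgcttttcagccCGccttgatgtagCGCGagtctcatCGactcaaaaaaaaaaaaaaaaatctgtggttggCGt
Cdkal1, chr13:29855674-29855923, minus strand: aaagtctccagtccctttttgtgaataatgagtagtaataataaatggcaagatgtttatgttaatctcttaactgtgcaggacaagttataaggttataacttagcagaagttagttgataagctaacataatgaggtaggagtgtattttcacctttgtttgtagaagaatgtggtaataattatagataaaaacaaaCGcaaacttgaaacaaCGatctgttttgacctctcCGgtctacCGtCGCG
Slc39a11, chr11:113565816-113566065, minus strand: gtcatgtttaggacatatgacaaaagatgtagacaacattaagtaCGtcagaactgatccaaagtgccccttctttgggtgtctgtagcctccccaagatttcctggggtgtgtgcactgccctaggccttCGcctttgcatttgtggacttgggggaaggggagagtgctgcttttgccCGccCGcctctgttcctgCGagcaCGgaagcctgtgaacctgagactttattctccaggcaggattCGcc

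These promoters differed in base composition. That of Gmds was 78.4% G and C with 36 CpG dinucleotides, that of Slc39a11 52.8% with 7, that of Ebf1 40.0% with 9 and that of Cdkal1 34.4% with 6. Over the 144 members with a promoter in the table, the median content of G and C was 64.8%, against 60.0% over all 7170 expressed symbols with one. The motif TATAAA, searched on both strands, occurred in 6.25% of the members' promoters, 6.16% of those of all expressed symbols and 12.4% of all 32851 promoters in the table. The motif GGGCGG, searched likewise, occurred in 59.0%, 61.5% and 32.7%. Both motifs were thus found in members' promoters at about the share seen in expressed genes of any span.

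The libraries were checked before the comparisons. Depth, taken from the ratio of coverage to FPKM, was 3.03 to 4.01 gigabases. Trappc1 was listed at 30.5 and 32.8 TPM in CD4 KO libraries, against 78.7 and 55.0 TPM in CD4 WT libraries. It was listed at 56.9 and 45.6 TPM in CD8 KO libraries, against 81.2 and 40.3 TPM in CD8 WT libraries, where the groups overlap. Which part of the gene is deleted was not known here, so a total over the gene is a limited check. The 10 T-cell markers were listed in all groups, and Cd4, Cd8a and Cd8b1 followed the labelled lineage. CD8 WT replicate 2 was unlike the other libraries: its summed T-cell markers were 5304 TPM, against 11817 TPM in CD8 WT replicate 1, its erythroid markers summed to 81696 against 1922 TPM and its neutrophil and other myeloid markers to 29590 against 643 TPM. In CD8 the summed level, the medians and counts over members and the values of some single genes are therefore also given without it.

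The level of long genes was lower in KO cells of both lineages. The members together made up 0.313% and 0.382% of all TPM in CD4 KO libraries, against 1.26% in both CD4 WT libraries. In CD8 cells they made up 0.441% and 0.378% in KO libraries, against 1.14% and 0.731% in WT libraries, the lower value being that of replicate 2. The summed level was 3.63 times higher in CD4 WT than in CD4 KO libraries and 2.28 times higher in CD8 WT than in CD8 KO libraries, or 2.78 times with only replicate 1 as the CD8 WT library. The median member had 5.56 and 7.23 TPM in CD4 KO libraries, against 24.8 and 27.2 TPM in CD4 WT libraries. It had 7.48 and 7.93 TPM in CD8 KO libraries, against 22.1 and 19.1 TPM in CD8 WT libraries. Every KO library was thus below every WT library in both sums and medians. In such bulk samples, fewer cells of a type and less RNA per cell cannot be told apart, and a TPM is a share, not an amount per cell. Depth was 3.03 and 3.22 gigabases in CD4 KO libraries, against 3.74 and 3.48 gigabases in CD4 WT libraries, and 4.01 and 3.52 gigabases in CD8 KO libraries, against 3.78 and 3.57 gigabases in CD8 WT libraries. The 8 myeloid markers, all listed, summed to 1276 and 2168 TPM in CD4 KO libraries, against 261 and 71.6 TPM in CD4 WT libraries, and to 1154 and 1538 TPM in CD8 KO libraries, against 643 and 29590 TPM in CD8 WT libraries. Of 7 erythroid markers 5 were listed, and they summed to 315 and 179.8 TPM in CD4 KO libraries, against 12.3 and 91.8 TPM in CD4 WT libraries, and to 173 and 297 TPM in CD8 KO libraries, against 1922 and 81696 TPM in CD8 WT libraries. Slc4a1, an anion exchanger of red cells, was at 0 in both CD4 WT libraries and in 1 of the CD4 KO libraries. The sums of both lists were higher in CD4 KO than in CD4 WT libraries, while B-cell markers summed to 5188 and 4537 TPM in CD4 KO libraries, against 9367 and 7138 TPM in CD4 WT libraries. The part of depth and of myeloid, erythroid and B cells in the result was not tested. T-cell markers summed to 8470 and 8884 TPM in CD4 KO libraries, against 8474 and 8757 TPM in CD4 WT libraries.

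**Figure D1:**
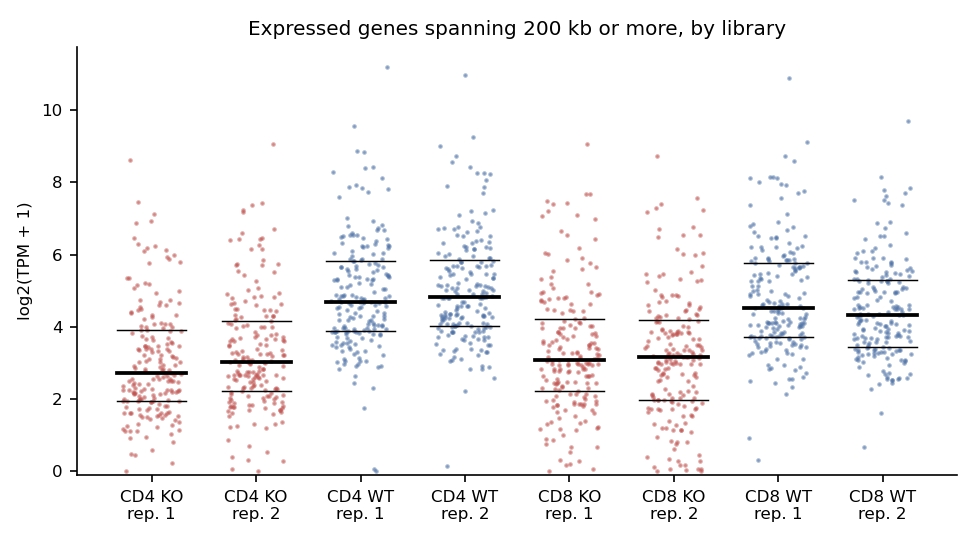
Level of the 192 members in each library as log2(TPM + 1), with 1 point per gene and horizontal lines at the median (thick) and quartiles (thin), KO libraries in red and WT libraries in blue. The medians of the 4 KO libraries lie between 5.56 and 7.93 TPM, below those of the 4 WT libraries, between 19.1 and 27.2 TPM.

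Single genes were tested with limma on log2(TPM + 1) across 11786 symbols with a mean of 1 TPM or more, with all 192 members among them, and a gene was called at a Benjamini-Hochberg adjusted p under 0.05. In CD4 cells 28 members (14.6%) fell and 0 rose, while the calls over all tested symbols were 0.526% lower and 0.187% higher. By sign alone, 189 members (98.4%) were lower, against 58% of tested symbols, and the median log2 difference was -1.84, against -0.16. The KO libraries lay below both WT libraries for 182 members (94.8%), against 36.5% of tested symbols. In CD8 cells 6 members (3.13%) fell and 0 rose, with 0.187% and 0.11% over all tested symbols. Lower by sign were 183 members (95.3%), against 47.3% of tested symbols, the median was -1.35, against 0.05, and 151 members (78.6%) did not overlap, against 19.1% of tested symbols. In both lineages together, 148 members did not overlap in the lower direction, against 11.1% of tested symbols. At an unadjusted p under 0.05, 152 members were lower and 0 higher in CD4 (11.7% and 5.03% of tested symbols), and 115 lower and 0 higher in CD8 (8.01% and 7.08%).

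These calls rest on few libraries. In CD4 cells no member was called by limma when any 1 CD4 library or either CD8 KO library was left out, 72 were called lower without CD8 WT replicate 1 (37.5%, against 4.2% of tested symbols) and 68 without CD8 WT replicate 2 (35.4%, against 4.26%), both sets holding all 28. Calls thus became more frequent over all symbols too. In CD8 cells no member was called without any 1 of the CD4 or CD8 KO libraries, and 29 were called lower without CD8 WT replicate 1. That is 15.1% of members, against 6.6% of tested symbols called lower and 15.6% called in either direction. Without CD8 WT replicate 2, 5 members were called (2.6%, against 0.144% of tested symbols called lower), and Gmds was the only 1 of the 6 among them. Each call named below, in CD4 or in CD8, is therefore lost without any 1 of those 6 libraries. The direction was steadier: over the same omissions 187 to 189 members were lower in CD4 and 175 to 183 in CD8. The median in CD8 was -1.10 without CD8 WT replicate 1 and -1.51 without replicate 2.

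The size of the difference changed along the range of spans, inside and outside the members. Over expressed symbols under 10 kb the median log2 difference was 0.14 in CD4 and 0.34 in CD8. It was -0.14 and 0.13 at 10 to 50 kb, -0.69 and -0.27 at 50 to 100 kb, and -1.11 and -0.65 at 100 to 200 kb. Among members it was -1.62 and -1.17 for the 120 spanning under 300 kb, -2.04 and -1.54 for the 55 spanning 300 to 500 kb, and -2.23 and -1.64 for the 17 spanning 500 kb or more. The medians thus run in one order with span in both lineages. Within members Spearman's rank correlation between log2 difference and span was -0.27 in CD4 and -0.29 in CD8 (n = 192 genes, measured in the same libraries). The rank correlation with the merged exon length ran the other way, at 0.30 in CD4 and 0.20 in CD8. Within members the 2 lengths thus had correlations of opposite sign. Over all symbols with a mean of 5 TPM or more both were negative, at -0.47 and -0.35 for span and -0.20 and -0.17 for merged exon length in CD4 and CD8.

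**Figure D2:**
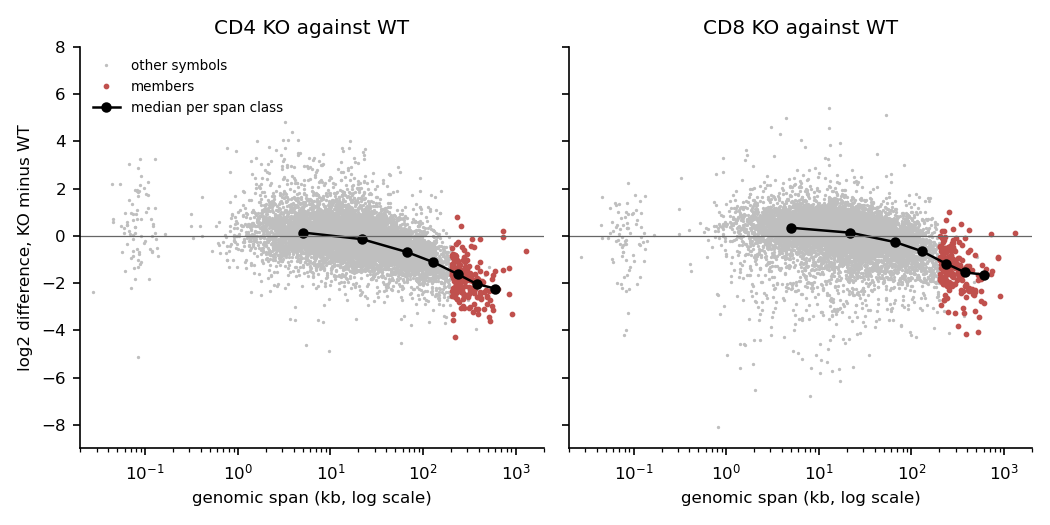
Log2 difference, KO minus WT, against genomic span in kb on a log axis, for CD4 (left panel) and CD8 (right panel), with members in red, other symbols with a mean of 5 TPM or more in grey, and the median of each span class in black. The medians run from 0.14 under 10 kb to -2.23 at 500 kb or more in CD4, and from 0.34 to -1.64 in CD8.

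The members' values were similar at low and high levels of expression. For members with a mean of 5 to 10 TPM (61 genes) the median was -1.63 in CD4 and -1.41 in CD8, for those with 10 to 20 TPM (55 genes) -1.93 and -1.58, and for those with 20 TPM or more (76 genes) -1.84 and -1.22. The matching medians over all tested symbols were -0.27 and -0.20, -0.31 and -0.10, and -0.16 and 0.16. The 116 symbols of 200 kb or more with a mean of 1 to 5 TPM, below the limit and so outside the members, had medians of -0.97 and -1.003. A group mean of 5 TPM or more was reached by 109 members in CD4 KO libraries and 189 in CD4 WT libraries. In CD8 it was reached by 124 members in KO libraries and 190 in WT libraries. Some members thus passed the limit through their WT level. Selecting members by the 4 KO libraries alone, which works against a fall, kept 120 genes, with 117 lower and a median of -1.65 in CD4, and 110 lower and a median of -1.17 in CD8.

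A wide symbol can hold short transcripts, so members were also divided by their shortest coding transcript in the GENCODE basic set. Transcripts outside that set were not counted, and the division was chosen after the data were seen. The 114 members whose every coding transcript in the basic set spans 200 kb or more had medians of -1.92 in CD4 and -1.42 in CD8. The 53 with a shortest one of 50 to 200 kb had -1.66 and -1.34, and the 23 with one under 50 kb had -1.47 and -1.02. Genes of the same functional classes that span under 100 kb were described in the same way. The 589 such genes had a median of -0.50 in CD4 and -0.15 in CD8, and 5 and 2 of them were called, while the 174 members with an assigned class had medians of -1.78 and -1.34. Over all tested symbols 0.713% were called in either direction in CD4 and 0.297% in CD8.

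Functional classes were assigned from gene symbols, and all 14 classes had a negative median in both lineages. The medians ranged from -2.41 (RNA processing) to -1.51 (kinases) in CD4 and from -2.41 (transporters) to -0.69 (phosphatases and phosphodiesterases) in CD8. These counts single out no class. The calls given for each class below stand beside 0.526% of tested symbols called lower in CD4 and 0.187% in CD8.

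Without CD8 WT replicate 2 the CD8 medians were mostly lower. Over members the median was -1.29 for spans under 300 kb, -1.91 for 300 to 500 kb and -2.01 for 500 kb or more, and over other expressed symbols 0.11 under 10 kb, -0.06 at 10 to 50 kb, -0.42 at 50 to 100 kb and -0.76 at 100 to 200 kb, the same order. By level it was -1.39 for members with 5 to 10 TPM, -1.81 with 10 to 20 TPM and -1.475 with 20 TPM or more, and -0.71 for the symbols of 1 to 5 TPM outside the members. By shortest coding transcript it was -1.61 for 200 kb or more, -1.44 for 50 to 200 kb and -1.32 for under 50 kb. Of the classes, 11 had a lower median without that library and 3 a higher one, which for transcription factors was -0.65. Both CD8 KO libraries were below CD8 WT replicate 1 for 173 members (90.1%), against 41% of tested symbols. In both lineages together this held for 167 (87%), against 23.6%. Single members moved by -1.935 to 2.49 in log2 difference, 135 of them downwards, and 11 changed sign. Among genes named below, Iqcj-schip1 moved from -1.50 to 0.99, Rnls from 1.03 to -0.43, Oxr1 from 0.23 to -0.95 and Bank1 from -2.11 to -1.02. Ebf1 had -2.17 without that library, Themis -0.63, Igf1r -0.63, Pitpnc1 -0.79, Thada -1.04, Tnrc6b -0.29 and Celf2 -1.36. Rere and Rnf220 had -0.04 and -0.21.

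**Figure D3:**
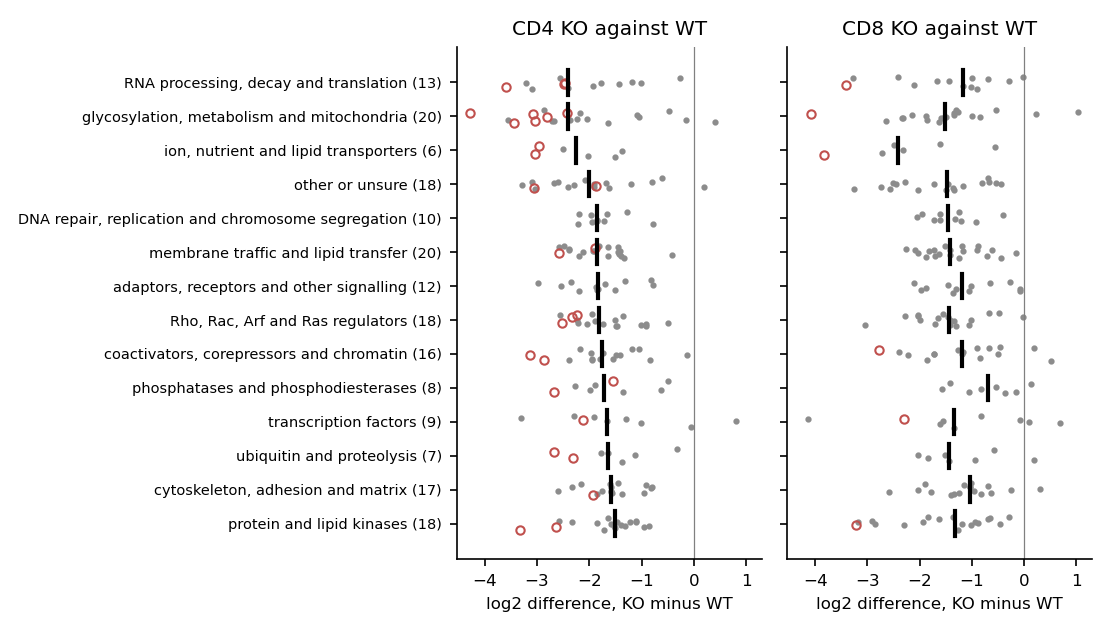
Log2 difference, KO minus WT, of each member by functional class (class size in brackets), for CD4 (left panel) and CD8 (right panel). Grey points are members without a call, open red circles are called members and black bars are class medians, all of which lie below 0.

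Regulators of small GTPases included the most abundant member. Of 18, 3 fell in CD4 (0.526% of tested symbols were called lower) and none was called in CD8, and all 18 were lower by sign in both, with medians of -1.81 and -1.44. Arhgap15, which switches Rac off, had 395 and 532 TPM in CD4 KO libraries, against 2336 and 1995 TPM in CD4 WT libraries, and 531 and 422 TPM in CD8 KO libraries, against 1909 and 832 TPM in CD8 WT libraries. It fell in CD4 (log2 difference -2.23 ± 0.39, adjusted p = 0.0423), and in CD8 the value was -1.41 ± 0.39 (adjusted p = 0.180). Dock2 and Elmo1 form the complex that activates Rac in migrating lymphocytes. Dock2 had 58.3 and 87.9 TPM in CD4 KO libraries, against 459 and 376 TPM in CD4 WT libraries (log2 difference -2.52 ± 0.39, adjusted p = 0.0343), and Elmo1 had 63.0 and 70.0 TPM in CD4 KO libraries, against 336 and 342 TPM in CD4 WT libraries (log2 difference -2.34 ± 0.32, adjusted p = 0.0290). In CD8, Dock2 had 133 and 92.6 TPM in CD8 KO libraries, against 384 and 198 TPM in CD8 WT libraries (-1.30 ± 0.39, adjusted p = 0.193), and Elmo1 had 71.4 and 64.5 TPM in CD8 KO libraries, against 276 and 165 TPM in CD8 WT libraries (-1.64 ± 0.32, adjusted p = 0.0914). Both partners and their opponent were thus lower in every KO library. Dock8, a related exchange factor for Cdc42 at the short end of the span range (203 kb), had 86.8 and 95.1 TPM in CD4 KO libraries, against 112 and 147 TPM in CD4 WT libraries, and 63.9 and 88.3 TPM in CD8 KO libraries, against 98.5 and 58.8 TPM in CD8 WT libraries, and the CD8 groups overlap.

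Kinases and phosphatases of lymphocyte signalling were lower with few calls. Of 18 kinases, 2 fell in CD4 and 1 in CD8, with medians of -1.51 and -1.32. Map3k5, a stress-activated kinase upstream of JNK and p38, had 1.25 and 3.02 TPM in CD4 KO libraries, against 38.0 and 22.0 TPM in CD4 WT libraries (log2 difference -3.32 ± 0.60, adjusted p = 0.0438). Camk1d, a calmodulin-dependent kinase, was the other kinase called in CD4 (log2 difference -2.63 ± 0.46, adjusted p = 0.0423). Camk2d, another calmodulin-dependent kinase, was called in CD8 alone, with 4.60 and 2.28 TPM in CD8 KO libraries, against 40.2 and 37.8 TPM in CD8 WT libraries (log2 difference -3.22 ± 0.51, adjusted p = 0.0404). In CD4 it had 10.1 and 7.96 TPM in CD4 KO libraries, against 15.5 and 31.6 TPM in CD4 WT libraries (log2 difference -1.22 ± 0.51, adjusted p = 0.269), and the difference between the lineages was not called. The most abundant kinases were not called: Camk4, which acts on nuclear targets of calcium signals, had 19.1 and 19.1 TPM in CD4 KO libraries, against 65.4 and 58.7 TPM in CD4 WT libraries (log2 difference -1.65 ± 0.35, adjusted p = 0.0744), and Prkcb, a protein kinase C, had 8.32 and 9.33 TPM in CD4 KO libraries, against 53.6 and 43.4 TPM in CD4 WT libraries (log2 difference -2.33 ± 0.44, adjusted p = 0.0512). Igf1r, the receptor of insulin-like growth factor 1, had a value of -1.32 ± 0.48 in CD4 and -0.29 ± 0.48 in CD8, where the groups overlap.

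Of 8 phosphatases and phosphodiesterases, 2 fell in CD4 and none was called in CD8, with medians of -1.72 and -0.69. Ssh2, a phosphatase that activates the actin-severing protein cofilin, had 117 and 143 TPM in CD4 KO libraries, against 342 and 421 TPM in CD4 WT libraries (log2 difference -1.54 ± 0.28, adjusted p = 0.0467). Ppm1h, a serine/threonine phosphatase, had 7.63 and 10.6 TPM in CD4 KO libraries, against 77.9 and 50.3 TPM in CD4 WT libraries (log2 difference -2.67 ± 0.45, adjusted p = 0.0416). Inpp4b, which removes a phosphate from a phosphoinositide, had 60.4 and 69.8 TPM in CD4 KO libraries, against 224 and 305 TPM in CD4 WT libraries (log2 difference -1.99 ± 0.41, adjusted p = 0.0648) and 53.7 and 50.05 TPM in CD8 KO libraries, against 215 and 91.3 TPM in CD8 WT libraries. The cAMP-degrading enzymes Pde4b and Pde4d differed less. Pde4b had 176 and 166 TPM in CD4 KO libraries, against 277 and 208 TPM in CD4 WT libraries (log2 difference -0.48 ± 0.28, adjusted p = 0.410). Pde4d, the longest member at 1302 kb, had 10.5 and 14.9 TPM in CD4 KO libraries, against 26.3 and 15.1 TPM in CD4 WT libraries, and 14.8 and 14.3 TPM in CD8 KO libraries, against 12.1 and 14.2 TPM in CD8 WT libraries. The CD8 KO libraries were slightly above the WT ones, so the gene with the greatest span was not among those with the greatest differences. Pde4d has 9 coding transcripts in the GENCODE basic set, the shortest spanning 24.5 kb. A level per gene does not tell which of them was present.

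Adaptors, receptors and other signalling proteins (12 members) had no call in either lineage, all were lower by sign, and the medians were -1.84 and -1.18. Sh3kbp1, an adaptor of receptor endocytosis, had 120.5 and 151 TPM in CD4 KO libraries, against 467 and 517 TPM in CD4 WT libraries (log2 difference -1.86 ± 0.40, adjusted p = 0.0759). Themis, needed in mice for T-cell selection in the thymus, had 24.7 and 24.0 TPM in CD4 KO libraries, against 61.8 and 80.6 TPM in CD4 WT libraries (log2 difference -1.50 ± 0.42, adjusted p = 0.127). In CD8, Themis had 92.2 and 63.6 TPM in CD8 KO libraries, against 119 and 55.0 TPM in CD8 WT libraries (log2 difference -0.08 ± 0.42, adjusted p = 0.942), and the groups overlap. Akap13, an anchor for protein kinase A, had 139 and 173 TPM in CD4 KO libraries, against 232 and 307 TPM in CD4 WT libraries, and 205 and 189.8 TPM in CD8 KO libraries, against 243 and 181 TPM in CD8 WT libraries. For all 3 genes the groups were apart in CD4, and for Themis and Akap13 they overlapped in CD8.

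Metabolic enzymes, mitochondrial proteins and glycosylation enzymes gave the most calls, 6 of 20 in CD4 and 1 in CD8, with medians of -2.40 and -1.52. Clybl, a mitochondrial citramalyl-CoA lyase, had the largest fall of any member in CD4, with 1.92 and 0.228 TPM in CD4 KO libraries, against 47.5 and 26.7 TPM in CD4 WT libraries (log2 difference -4.27 ± 0.63, adjusted p = 0.0318). In CD8 it had 10.4 and 10.1 TPM in CD8 KO libraries, against 49.6 and 18.8 TPM in CD8 WT libraries (log2 difference -1.49 ± 0.63, adjusted p = 0.309). Gmds makes the precursor of GDP-fucose, the donor for fucosylation, and its promoter is the one rich in CpG above. It had 1.36 and 2.08 TPM in CD4 KO libraries, against 25.5 and 31.7 TPM in CD4 WT libraries (log2 difference -3.45 ± 0.55, adjusted p = 0.0343) and 0.440 and 0 TPM in CD8 KO libraries, against 23.6 and 15.9 TPM in CD8 WT libraries (log2 difference -4.09 ± 0.55, adjusted p = 0.0248). One CD8 KO library thus lists Gmds at 0, and the other 3 KO libraries list it at no more than 2.08 TPM. Adk, the kinase that clears adenosine, was the most abundant of the class, with 73.9 and 85.6 TPM in CD4 KO libraries, against 759 and 613 TPM in CD4 WT libraries (log2 difference -3.08 ± 0.39, adjusted p = 0.0290). In CD8 it had 126 and 103 TPM in CD8 KO libraries, against 424 and 180.2 TPM in CD8 WT libraries (log2 difference -1.27 ± 0.39, adjusted p = 0.211). Gbe1, the glycogen branching enzyme, fell in CD4 (log2 difference -3.04 ± 0.47, adjusted p = 0.0343), and so did Suclg2, a subunit of a succinyl-CoA ligase (log2 difference -2.81 ± 0.46, adjusted p = 0.0384), and Chchd3, part of the complex that shapes mitochondrial cristae (log2 difference -2.42 ± 0.42, adjusted p = 0.0423). Oxr1, an oxidation resistance protein, had 77.7 and 75.6 TPM in CD4 KO libraries, against 102 and 70.4 TPM in CD4 WT libraries, and 135 and 70.9 TPM in CD8 KO libraries, against 190.3 and 35.98 TPM in CD8 WT libraries, and both pairs of groups overlap.

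**Figure D4:**
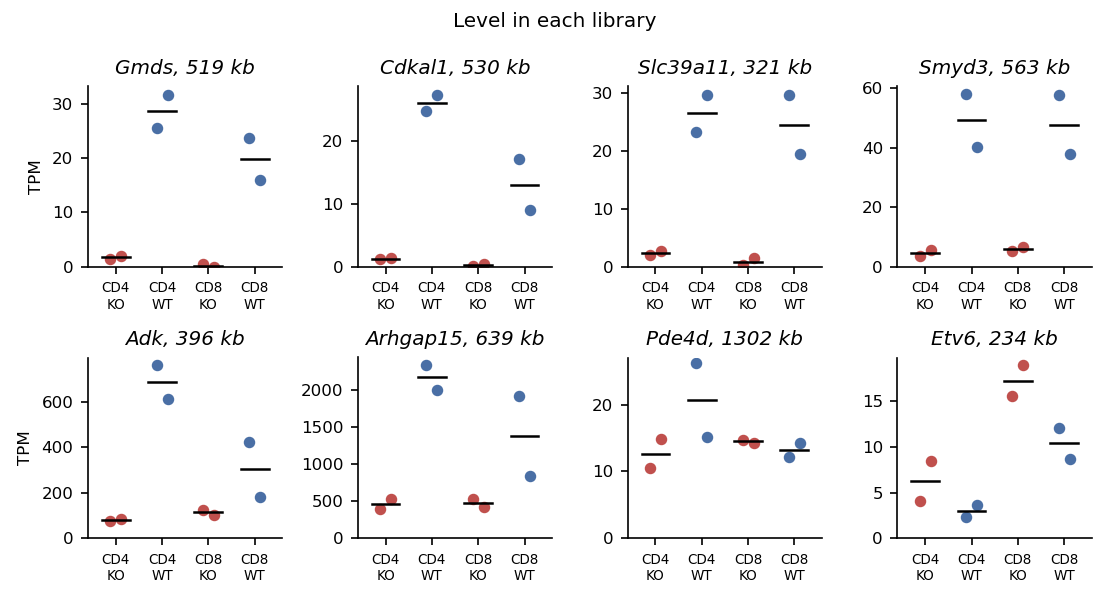
TPM in each library (points) and group mean (black bars) for the 4 members called in both lineages (upper row) and for Adk, Arhgap15, Pde4d and Etv6 (lower row), with KO in red to the left of WT in blue. Each vertical axis starts at 0 and has its own scale, and for the upper row every KO library lies at or below 6.79 TPM and every WT library at or above 8.98 TPM.

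Transporters (6 members) had medians of -2.26 and -2.41, with 2 calls in CD4 and 1 in CD8. Slc39a11, a zinc transporter, fell in both, with 1.97 and 2.75 TPM in CD4 KO libraries, against 23.2 and 29.7 TPM in CD4 WT libraries (log2 difference -3.03 ± 0.56, adjusted p = 0.0491) and 0.241 and 1.51 TPM in CD8 KO libraries, against 29.6 and 19.4 TPM in CD8 WT libraries (log2 difference -3.82 ± 0.56, adjusted p = 0.0301). Slc9a9, a sodium and proton exchanger of endosomes, had 5.21 and 5.36 TPM in CD4 KO libraries, against 39.4 and 57.6 TPM in CD4 WT libraries (log2 difference -2.95 ± 0.50, adjusted p = 0.0416) and 4.57 and 8.51 TPM in CD8 KO libraries, against 49.5 and 25.4 TPM in CD8 WT libraries (log2 difference -2.33 ± 0.50, adjusted p = 0.108). Slc10a7 had 12.03 and 11.3 TPM in CD4 KO libraries, against 35.2 and 34.4 TPM in CD4 WT libraries and 6.76 and 2.97 TPM in CD8 KO libraries, against 55.7 and 22.5 TPM in CD8 WT libraries. All 3 were lower in every KO library than in any WT library of their lineage.

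Members of membrane traffic and lipid transfer, the process in which TRAPP complexes act, numbered 20, of which 2 fell in CD4 and none was called in CD8. All 20 were lower by sign in both lineages (18 without CD8 WT replicate 2), with medians of -1.85 and -1.42, while the 70 genes of the class that span under 100 kb had medians of -0.60 and -0.05. Pitpnc1, a phosphatidylinositol transfer protein, had 71.3 and 83.3 TPM in CD4 KO libraries, against 310.0 and 268 TPM in CD4 WT libraries (log2 difference -1.89 ± 0.32, adjusted p = 0.0416). In CD8 it had 177 and 145 TPM in CD8 KO libraries, against 278 and 172 TPM in CD8 WT libraries (log2 difference -0.45 ± 0.32, adjusted p = 0.518), and those groups overlap. Scaper, an endoplasmic reticulum protein that binds cyclin A, had 7.77 and 8.65 TPM in CD4 KO libraries, against 57.4 and 50.2 TPM in CD4 WT libraries (log2 difference -2.57 ± 0.37, adjusted p = 0.0316). Ap3b1, a subunit of the AP-3 adaptor of lysosome-related organelles, had 35.2 and 42.0 TPM in CD4 KO libraries, against 109.7 and 135 TPM in CD4 WT libraries (log2 difference -1.64 ± 0.31, adjusted p = 0.0522). Rabgap1l, a GTPase-activating protein for Rab proteins that spans 574 kb, had 39.8 and 23.6 TPM in CD4 KO libraries, against 93.0 and 104 TPM in CD4 WT libraries (log2 difference -1.65 ± 0.37, adjusted p = 0.0811). Apart from Pitpnc1 in CD8, the groups of these 4 genes did not overlap in either lineage.

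RNA processing, decay and translation (13 members) had 3 calls in CD4 and 1 in CD8, and medians of -2.41 and -1.16. Cdkal1, which modifies a lysine transfer RNA, fell in both, with 1.17 and 1.33 TPM in CD4 KO libraries, against 24.8 and 27.3 TPM in CD4 WT libraries (log2 difference -3.59 ± 0.57, adjusted p = 0.0343) and 0.153 and 0.370 TPM in CD8 KO libraries, against 17.0 and 8.98 TPM in CD8 WT libraries (log2 difference -3.42 ± 0.57, adjusted p = 0.0482). Celf2, a splicing regulator that spans 857 kb, had 11.4 and 21.4 TPM in CD4 KO libraries, against 92.9 and 91.4 TPM in CD4 WT libraries (log2 difference -2.48 ± 0.44, adjusted p = 0.0423) and 65.2 and 43.2 TPM in CD8 KO libraries, against 138 and 72.4 TPM in CD8 WT libraries (log2 difference -0.90 ± 0.44, adjusted p = 0.363). Snd1, a nuclease of RNA decay, fell in CD4 (log2 difference -2.46 ± 0.37, adjusted p = 0.0318). Thada had 67.1 and 103 TPM in CD4 KO libraries, against 213 and 238 TPM in CD4 WT libraries (log2 difference -1.43 ± 0.47, adjusted p = 0.172), and Tnrc6b, a partner of Argonaute in silencing by miRNAs, had 35.9 and 51.5 TPM in CD4 KO libraries, against 78.6 and 99.1 TPM in CD4 WT libraries (log2 difference -1.02 ± 0.36, adjusted p = 0.195). In CD8 the groups of Thada and Tnrc6b overlap, with values of -0.28 ± 0.47 and -0.03 ± 0.36.

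Coactivators, corepressors and chromatin proteins (16 members) had 2 calls in CD4 and 1 in CD8, and medians of -1.76 and -1.18. Smyd3, a lysine methyltransferase, fell in both, with 3.77 and 5.63 TPM in CD4 KO libraries, against 58.1 and 40.4 TPM in CD4 WT libraries (log2 difference -3.14 ± 0.45, adjusted p = 0.0301) and 5.29 and 6.79 TPM in CD8 KO libraries, against 57.7 and 37.8 TPM in CD8 WT libraries (log2 difference -2.77 ± 0.45, adjusted p = 0.0458). Aff3, a nuclear protein known from lymphoid cells, had 2.99 and 6.95 TPM in CD4 KO libraries, against 40.4 and 40.1 TPM in CD4 WT libraries (log2 difference -2.87 ± 0.50, adjusted p = 0.0423). The most abundant members were Ncoa2, a coactivator of nuclear receptors (log2 difference -1.05 ± 0.40, adjusted p = 0.232 in CD4), Baz2b, a bromodomain protein (log2 difference -1.79 ± 0.41, adjusted p = 0.0826), and Mll3, a methyltransferase of histone H3 (log2 difference -1.40 ± 0.39, adjusted p = 0.130). Hdac4, a histone deacetylase, had 3.74 and 7.43 TPM in CD4 KO libraries, against 17.4 and 22.9 TPM in CD4 WT libraries, and 23.6 and 24.2 TPM in CD8 KO libraries, against 20.02 and 21.6 TPM in CD8 WT libraries. It was named after its values were seen, because its groups did not overlap in either lineage and stood in opposite orders, with a test of the difference at adjusted p = 0.701. The groups also stood apart and in opposite orders for Pde4d (adjusted p = 0.756 for the difference between lineages) and for Spon1 (adjusted p = 0.701), an extracellular matrix protein, which had 5.61 and 6.46 TPM in CD4 KO libraries, against 13.0 and 11.4 TPM in CD4 WT libraries, and 21.1 and 23.4 TPM in CD8 KO libraries, against 20.8 and 15.3 TPM in CD8 WT libraries.

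Transcription factors (9 members) had 1 call in each lineage and medians of -1.66 and -1.34. Bbx, an HMG-box protein, had 13.3 and 17.5 TPM in CD4 KO libraries, against 75.03 and 63.6 TPM in CD4 WT libraries (log2 difference -2.11 ± 0.37, adjusted p = 0.0423) and 24.6 and 17.6 TPM in CD8 KO libraries, against 73.0 and 53.7 TPM in CD8 WT libraries (log2 difference -1.54 ± 0.37, adjusted p = 0.137). Foxn3, a forkhead repressor, was called in CD8, with 16.4 and 16.7 TPM in CD8 KO libraries, against 69.0 and 105 TPM in CD8 WT libraries (log2 difference -2.29 ± 0.35, adjusted p = 0.0335). In CD4 it had 24.2 and 29.9 TPM in CD4 KO libraries, against 82.0 and 92.2 TPM in CD4 WT libraries (log2 difference -1.66 ± 0.35, adjusted p = 0.0735). Ebf1, which sets up the B-cell lineage, is the most abundant of the class, with 7.99 and 21.1 TPM in CD4 KO libraries, against 191 and 98.8 TPM in CD4 WT libraries (log2 difference -3.30 ± 1.11, adjusted p = 0.182) and 6.77 and 1.198 TPM in CD8 KO libraries, against 17.6 and 286 TPM in CD8 WT libraries (log2 difference -4.14 ± 1.11, adjusted p = 0.171). Its level of 286 TPM in CD8 WT replicate 2 stands against 17.6 TPM in replicate 1.

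Ebf1 and some other members are known from B cells, and the summed level of B-cell markers was lower in both CD4 KO libraries than in either CD4 WT library, though not every marker was, and overlapped between CD8 groups. The 5 B-cell markers, all listed in every library, summed to 5188 and 4537 TPM in CD4 KO libraries, against 9367 and 7138 TPM in CD4 WT libraries. They summed to 1342 and 1765 TPM in CD8 KO libraries, against 930 and 12193 TPM in CD8 WT libraries. Bank1, a B-cell scaffold protein, had 15.9 and 8.57 TPM in CD4 KO libraries, against 95.4 and 103 TPM in CD4 WT libraries, and 2.87 and 6.90 TPM in CD8 KO libraries, against 10.2 and 49.9 TPM in CD8 WT libraries. March1, a ubiquitin ligase that lowers surface MHC class II and spans 854 kb, had 21.1 and 18.7 TPM in CD4 KO libraries, against 55.5 and 50.3 TPM in CD4 WT libraries, and 6.71 and 4.17 TPM in CD8 KO libraries, against 12.5 and 9.98 TPM in CD8 WT libraries. The part of B cells in the differences of these genes was not tested.

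Proteins of the cytoskeleton, adhesion and matrix (17 members) had 1 call in CD4, none in CD8, and medians of -1.59 and -1.04. Macf1, which links microtubules to actin, was the call (log2 difference -1.93 ± 0.34, adjusted p = 0.0423). Utrn, the homologue of dystrophin, had 69.2 and 84.9 TPM in CD4 KO libraries, against 230.2 and 235 TPM in CD4 WT libraries (log2 difference -1.59 ± 0.36, adjusted p = 0.0826). Inadl, a polarity scaffold, had 34.9 and 52.8 TPM in CD4 KO libraries, against 121 and 141 TPM in CD4 WT libraries (log2 difference -1.59 ± 0.48, adjusted p = 0.147), and Sntb1, a syntrophin, had 22.3 and 37.9 TPM in CD4 KO libraries, against 76.6 and 108 TPM in CD4 WT libraries (log2 difference -1.61 ± 0.48, adjusted p = 0.148). These abundant members were lower in both CD4 KO libraries than in either CD4 WT library without passing the test.

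Genes of DNA repair, replication and chromosome segregation (10 members) had no call, all were lower by sign in both lineages, and the medians were -1.86 and -1.46. Nsmce2, a SUMO ligase of the SMC5/6 complex, had 13.8 and 15.2 TPM in CD4 KO libraries, against 91.3 and 54.5 TPM in CD4 WT libraries (log2 difference -2.21 ± 0.51, adjusted p = 0.0839). Stag1, a cohesin subunit, had 10.2 and 12.7 TPM in CD4 KO libraries, against 39.2 and 48.9 TPM in CD4 WT libraries (log2 difference -1.86 ± 0.38, adjusted p = 0.0673), and Mad1l1, of the spindle checkpoint, had 14.6 and 14.9 TPM in CD4 KO libraries, against 32.3 and 42.1 TPM in CD4 WT libraries (log2 difference -1.27 ± 0.48, adjusted p = 0.226). The groups of all 3 were apart in both lineages.

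Of 7 members of ubiquitin transfer and proteolysis, 2 fell in CD4 and none was called in CD8, with medians of -1.63 and -1.44. Tasp1, the protease that cleaves MLL proteins, had 11.7 and 23.3 TPM in CD4 KO libraries, against 101 and 121 TPM in CD4 WT libraries (log2 difference -2.67 ± 0.47, adjusted p = 0.0423). Mycbp2, a large ubiquitin ligase, had 12.4 and 12.6 TPM in CD4 KO libraries, against 74.0 and 58.8 TPM in CD4 WT libraries (log2 difference -2.31 ± 0.42, adjusted p = 0.0467), and Btbd9, a cullin adaptor, had 23.5 and 21.7 TPM in CD4 KO libraries, against 74.1 and 70.3 TPM in CD4 WT libraries (log2 difference -1.63 ± 0.39, adjusted p = 0.0923). Among the 18 members of other or unsure function, 2 fell in CD4 and none was called in CD8, with medians of -1.999 and -1.48. BC057079 had 1.21 and 1.87 TPM in CD4 KO libraries, against 19.996 and 19.6 TPM in CD4 WT libraries (log2 difference -3.05 ± 0.53, adjusted p = 0.0423), and Fryl, a relative of the Furry protein, had 20.5 and 25.1 TPM in CD4 KO libraries, against 92.8 and 79.3 TPM in CD4 WT libraries (log2 difference -1.87 ± 0.33, adjusted p = 0.0423). Wwox, the second longest member at 913 kb and an oxidoreductase with WW domains, had 0.176 and 0.253 TPM in CD4 KO libraries, against 13.8 and 8.52 TPM in CD4 WT libraries, and 0.595 and 0.543 TPM in CD8 KO libraries, against 15.1 and 4.37 TPM in CD8 WT libraries, with adjusted p = 0.0735 and 0.173 in the 2 lineages. Fam172a had 6.24 and 11.9 TPM in CD4 KO libraries, against 88.7 and 74.3 TPM in CD4 WT libraries (log2 difference -3.09 ± 0.58, adjusted p = 0.05001).

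A few members stood away from the general direction. Lower by sign in both lineages were 182 members (179 without CD8 WT replicate 2), against 33.2% of tested symbols, and 133 (69.3%) had all 4 KO libraries below all 4 WT libraries, against 7.69% of tested symbols. No member had all 4 KO libraries above all 4 WT libraries. Etv6 and Rnls alone were higher by sign in both, against 27.6% of tested symbols. Without CD8 WT replicate 2 the CD8 value was 0.47 for Etv6 but -0.43 for Rnls. Iqcj-schip1, higher by sign in CD4, then had 0.99 in CD8. KO libraries lay above both WT libraries for 1 member in CD4 (21.7% of tested symbols) and 4 in CD8 (23%). Etv6, a transcriptional repressor of blood cell development, had 4.13 and 8.49 TPM in CD4 KO libraries, against 2.38 and 3.65 TPM in CD4 WT libraries, and 15.6 and 19.0 TPM in CD8 KO libraries, against 12.1 and 8.74 TPM in CD8 WT libraries. Its KO libraries were above its WT libraries within each lineage without passing the test (adjusted p = 0.475 in CD4 and 0.560 in CD8). Rnls, an oxidase, had 2.97 and 3.09 TPM in CD4 KO libraries, against 0.0450 and 7.95 TPM in CD4 WT libraries, and 8.66 and 7.46 TPM in CD8 KO libraries, against 11.2 and 0.608 TPM in CD8 WT libraries, with 1 WT library near 0 in each lineage. Rora, a nuclear receptor of innate-like and effector lymphocytes that spans 725 kb, had 9.04 and 7.21 TPM in CD4 KO libraries, against 10.6 and 6.61 TPM in CD4 WT libraries, and 21.1 and 14.9 TPM in CD8 KO libraries, against 12.8 and 21.6 TPM in CD8 WT libraries, and both pairs of groups overlap. Rere, a corepressor, and Rnf220, a ubiquitin ligase, also overlapped in both lineages, with values of -0.13 ± 0.47 and -0.32 ± 0.41 in CD4 and 0.52 ± 0.47 and 0.19 ± 0.41 in CD8. Iqcj-schip1, a readthrough gene of 734 kb that overlaps its component genes and is therefore uncertain, had 0 and 5.14 TPM in CD8 KO libraries, against 0.247 and 38.2 TPM in CD8 WT libraries.

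**Figure D5:**
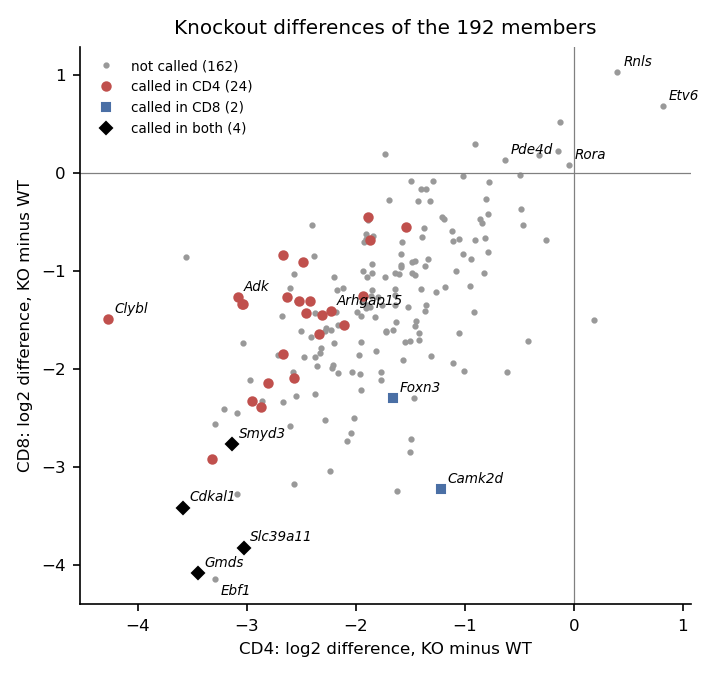
Log2 difference, KO minus WT, of the 192 members in CD4 (horizontal axis) and CD8 (vertical axis), with symbols by call. The 182 members lower in both lineages fill the lower left, and Etv6 and Rnls lie in the upper right. All 8 libraries were used, and without CD8 WT replicate 2 the CD8 value of Rnls was -0.43.

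The CD4 and CD8 comparisons use separate libraries, but whether cells of both lineages came from the same mice is not known here. Across members Pearson's r between the CD4 and CD8 log2 differences was 0.61 (n = 192 genes), or 0.60 without CD8 WT replicate 2. No such value over all tested symbols is given beside it. Called lower in both were 4 members, Cdkal1, Gmds, Slc39a11 and Smyd3, and 30 were called in either. Over tested symbols 0.526% were called lower in CD4 and 0.187% in CD8. The shares of tested symbols called in both or in either were not counted. The CD8 difference minus the CD4 difference was above 0 for 149 members, against 61.2% of tested symbols, with a median of 0.50, against 0.24. Expressed symbols of 100 to 200 kb were like the members here, with 421 of 543 above 0 and a median of 0.53. Without CD8 WT replicate 2 the CD8 minus CD4 value was above 0 for 128 members (66.7%), against 54.3% of tested symbols, with a median of 0.24, against 0.08. For the symbols of 100 to 200 kb it was then above 0 for 70.7%, with a median of 0.35. In limma no member was called for this difference between lineages (0 of 11786 tested, 0%), with 11 higher and 1 lower at an unadjusted p under 0.05 (3.86% and 3.09% of tested symbols). Without CD8 WT replicate 1, which leaves replicate 2 as the lone CD8 WT library, 9 members were called (4.69%), against 9.74% of tested symbols. Between WT CD8 and WT CD4 cells the members' median was -0.39. It was -0.26 over tested symbols and -0.29 over those with a mean of 5 TPM or more. No member was called in this comparison either (0.195% of tested symbols were), with 2 higher and 9 lower at an unadjusted p under 0.05 (3.28% and 5.39% of tested symbols). Without CD8 WT replicate 1 the count was 11 (5.73%), against 13.8% of tested symbols.

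Genes next to each limit of the rule are given as a description. Just inside 200 kb, Grk5 (203 kb), Dock8 (203 kb) and Alcam (204 kb) had CD4 log2 differences of -0.86, -0.50 and -2.33, and just outside, Atp9b (199.9 kb), Tmem135 (199 kb) and Pde4dip (199 kb) had -1.78, -1.49 and -0.63. Just inside 5 TPM, Grk5, Ext1 and Faf1 had mean levels of 5.04, 5.04 and 5.08 TPM, with CD4 values of -0.86, -1.08 and -1.77. Just outside, C230081A13Rik, Slc4a10 and Cdyl had 4.89, 4.77 and 4.76 TPM, with CD4 values of -0.76, -0.04 and 0.23.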

How the data were processed

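Gene tables of 8 libraries were used, 1 table per library. Reads were aligned with HISAT to mm10, per the submitters' processing notes. Neither its version nor the quantification program is named in the sources used here. The deposited tables give TPM per gene, per the file headers, and the authors scaled it to the same total in every library. They also give FPKM per gene, used here for depth and as an alternative, per the file headers. A coverage column is deposited too and was used for depth only. Rows of 1 symbol were summed. TPM keeps no read counts, so no counting interval is given, and a 0 is reported as listed.

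The span of a gene is that of its widest row in the table of CD4 WT replicate 1. Log2(TPM + 1) values of 11786 symbols with a mean of 1 TPM or more were fitted with limma 3.58.1 in R 4.3.3, letting the prior variance follow mean level, with 4 group means and 1 residual variance per gene shared by all groups. Values after ± are standard errors. Adding 1 TPM shrinks the differences of genes with low levels. P-values were adjusted by Benjamini-Hochberg over all 11786 symbols. The fit was tested on simulated data with known changes.

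Named genes were the 10 largest falls called in each KO comparison, the 5 longest members, those next to each limit, the 3 most abundant of each class, the 8 highest in both KO groups, and the 4 with printed promoters. The other called members, Bank1, Hdac4, Spon1 and the divisions by transcript span and by genes under 100 kb were chosen after values were seen. The members, classes and lists were chosen with earlier results of these data known. Classes rest on gene symbols and general knowledge, and 18 members were left as other or unsure. Alternatives were other pseudocounts, filters, scalings, weights, fits and limits, and each library left out. The levels of some marker genes are not reported here.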

Additional observations from a re-analysis of the deposited data

How the results depend on the processing

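All 16 called values of the genes named by size kept their direction in the 20 alternatives run for each, and 0 members were called higher in any of them. The count of 28 members called lower in CD4 became 0 with no filter on low values, 0 with the trend against span removed, 0 with no intensity trend, 115 with library weights (7.43% of tested symbols were called lower), 46 with only the compared groups (1.34%, and 0.526% in the fit reported), 15 of the 72 members at 300 kb or more, and 0 to 72 with 1 library left out. The count of 6 in CD8 became 3 with a pseudocount of 5, 0 with no filter, 0 with the span trend removed, 3 with no intensity trend, 0 with library weights, 0 with only the compared groups, 2 of 76 members at 20 TPM or more, 3 of 120 members chosen by the KO libraries, and 0 to 29 with 1 library left out. The counts of 0 for the difference between lineages and for WT CD8 against WT CD4 became 0 to 9 and 0 to 11 with 1 library left out. The CD4 median of -1.84 became -1.37 with a pseudocount of 5, -1.63 (-1.625) with median-of-ratios scaling, -1.52 with FPKM, -0.35 with the span trend removed, -1.63 at 150 kb or more, -2.10 at 300 kb or more, -1.65 with members chosen by the KO libraries, and -1.91 to -1.69 with 1 library left out. The CD8 median of -1.35 became -1.003 with a pseudocount of 5, -0.29 with the span trend removed, -1.62 at 300 kb or more and -1.51 to -1.10 with 1 library left out. Removing the span trend takes out by construction what the members share. Median-of-ratios scaling moved the median of all tested symbols in CD4 to 0.03, against -0.16, and called 35 members lower in CD4 and 8 in CD8. The cause of the other moves was not tested. Deviations of same-numbered libraries correlated across genes at -0.04 to 0.09, and the fit reported pairs no libraries. With 1 such deviation per group, these correlations cannot tell whether same-numbered libraries came from the same mice. A fit with the replicate block called 7 members lower in CD4 and 3 in CD8. No depth limit can be put on a single gene, since the files hold no read counts.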
